A study of Mus musculus with 30 samples.

Results

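The 6 genes described here encode the EGF receptor (Egfr), 4 of its family's ligands (Ereg, Areg, Hbegf and Nrg1) and the intracellular inhibitor of the receptor, Errfi1. They were chosen by symbol from the 56941 genes of the count tables, and each symbol matched 1 Ensembl gene. The counts come from 3′ mRNA-Seq, which reads a stretch near the 3′ end of each polyadenylated transcript, in mHypoA-2/12 cells, a line derived from the hypothalamus of adult mice. Cells were cultured for 6 h or 24 h with cannabidiol (CBD), the non-intoxicating cannabinoid of *Cannabis*, at 0.325, 0.75, 1.5 or 3 µM, or with vehicle. All groups, vehicle included, received 0.1% DMSO in DMEM with GlutaMAX. The study's methods name serum for the growth medium and not for the treatment medium. Each of the 10 groups had 3 libraries, named A1 to A30 as in the labels. The study's methods give the number of samples at the culture step. Whether these cultures came from separate passages or days is not given in the sources used here, so p-values measure the spread between these libraries, which may be partly technical.

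Ligands of the EGF family are made as membrane-bound precursors. Metalloproteases of the ADAM family cut them at the cell surface, and the released ligand brings receptors together in pairs, which switches on their kinase. The signal runs through the adaptors Grb2 and Shc1, the Ras proteins and the Raf and MEK kinases to ERK, which raises transcription of early genes such as *Fos* and *Egr1*, and of several EGF ligands themselves. ERK also raises its own brakes, the Dusp phosphatases and Sprouty proteins, while Errfi1 (also called Mig6) binds the receptor's kinase and silences it. In the hypothalamus, EGF-family ligands and ERBB receptors are known for their part in the control of puberty by glia and in the output of the circadian clock.

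Promoters are shown for *Areg*, *Errfi1* and *Egfr*, the 3 members with a window in the RefSeq table used here. *Areg* and *Errfi1* passed the test between 6 h and 24 h in vehicle and *Egfr* did not. Without the vehicle library A3 of 6 h, *Areg* and *Errfi1* did not pass either. Each sequence is the 250 bases before a RefSeq transcription start on GRCm38.p6, read 5′ to 3′ on the plus strand, which is the strand of all 3 genes. Capitals mark matches to 3 motifs: the cAMP response element CRE (TGACGTCA), the GC box (GGGCGG, read as CCGCCC on the other strand) and the TATA box (TATAAA).
*Areg*, chr5:91139349-91139598: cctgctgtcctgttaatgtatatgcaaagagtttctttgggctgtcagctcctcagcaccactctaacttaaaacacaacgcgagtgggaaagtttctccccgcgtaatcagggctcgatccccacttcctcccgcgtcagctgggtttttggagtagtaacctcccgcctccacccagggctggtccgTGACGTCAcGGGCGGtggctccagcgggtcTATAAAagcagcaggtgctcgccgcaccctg
*Errfi1*, start 2, chr4:150854820-150855069: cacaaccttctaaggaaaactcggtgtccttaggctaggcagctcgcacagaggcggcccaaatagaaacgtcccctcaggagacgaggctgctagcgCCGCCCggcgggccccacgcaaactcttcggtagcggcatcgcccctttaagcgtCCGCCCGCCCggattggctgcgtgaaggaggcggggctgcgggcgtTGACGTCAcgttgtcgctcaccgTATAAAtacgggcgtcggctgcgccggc
*Egfr*, chr11:16751953-16752202: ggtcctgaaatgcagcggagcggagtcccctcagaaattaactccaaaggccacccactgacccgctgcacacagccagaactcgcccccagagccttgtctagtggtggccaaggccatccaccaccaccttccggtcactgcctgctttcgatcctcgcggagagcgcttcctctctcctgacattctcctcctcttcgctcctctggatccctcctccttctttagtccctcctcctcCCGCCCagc

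The *Areg* promoter held a full CRE that began 61 bases before the start, a GC box and a TATA box 31 bases before the start. The second start of *Errfi1* had the same pair in a like position, with a CRE at 51 and a TATA box at 28 bases, and 3 GC boxes. The first start of *Errfi1*, which lies upstream of the second, held none of the motifs searched. The *Egfr* promoter held a single GC box 9 bases before the start, and no TATA box. Of the 32851 promoter windows of this length in the same table, 1.55% held the CRE on either strand, 12.4% the TATA box and 32.7% the GC box. AP-1 (TGANTCA), the EGR motif (GCGTGGGCG), the E-box (CACGTG) and the TEAD motif (ACATTCC) were searched for as well and had no match in these 4 windows, where their shares over all windows were 6.75%, 0.536%, 6.02% and 3.25%. A match describes letters in this window and not a site in use. The 3′ reads do not tell which start a transcript came from.

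The 30 libraries held 1839621 to 4420675 reads on genes. The labelled cell type was compared with marker genes. Of 10 neuronal markers, *Tubb3* (mean over libraries 49.3 counts per 1000000 reads on genes, CPM), *Nefm* (40.7 CPM) and *Map2* (23.3 CPM) were read most. *Nefl* (16.5 CPM), *Stmn2* (15.4 CPM) and *Syt1* (2.01 CPM) were read as well, while *Snap25*, *Rbfox3*, *Elavl3* and *Elavl4* had means below 1 CPM. All of the 7 mesenchymal markers were read, led by *Vim* (2209 CPM) and *Col1a1* (2063 CPM). Of 6 astrocyte markers 3 had means below 1 CPM, among them *Aqp4* with no read, while *Slc1a2* was at 18.9 CPM. Of 5 microglial markers 3 had means below 1 CPM, while *Cx3cr1* was at 14.6 CPM and *Csf1r* at 11.4 CPM. Of 5 oligodendrocyte markers 4 had means below 1 CPM, among them *Olig2* with no read. The summed CPM of the 7 mesenchymal markers ranged from 6308 to 7370 in vehicle and from 5687 to 7325 in CBD-treated libraries at 6 h, and that of the 10 neuronal markers from 154 to 188 and from 129 to 179. At 24 h the neuronal sum was 138 to 143 in vehicle, below that of 6 h with no overlap, and 114 to 183 with CBD, and the mesenchymal sum was 6266 to 7162 and 5943 to 7070. The summed CPM of 2 progenitor markers was 113 to 133 in vehicle and 128 to 200.1 with CBD at 6 h, and both groups overlapped at 24 h as well. The part of cell makeup in the results was not tested, and in bulk RNA fewer cells that express a gene and less RNA per cell cannot be told apart. At 6 h, the vehicle library A3 and the 0.75 µM libraries A10 and A11 stood apart from the rest for *Ereg*, *Hbegf* and *Errfi1*, so results that rest on them are given with and without them. A3 was deeper (3574833 reads) than the vehicle libraries A1 (1839621) and A2 (1919498), and 17.9% of its reads lay outside genes against 21.4% and 20.8%. A10 and A11 had 2715507 and 2696044 reads, with 20.4% and 21.1% outside genes. The part of depth in the results was not tested, and results that differ with this percentage as a covariate are given with it.

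**Figure D1:**
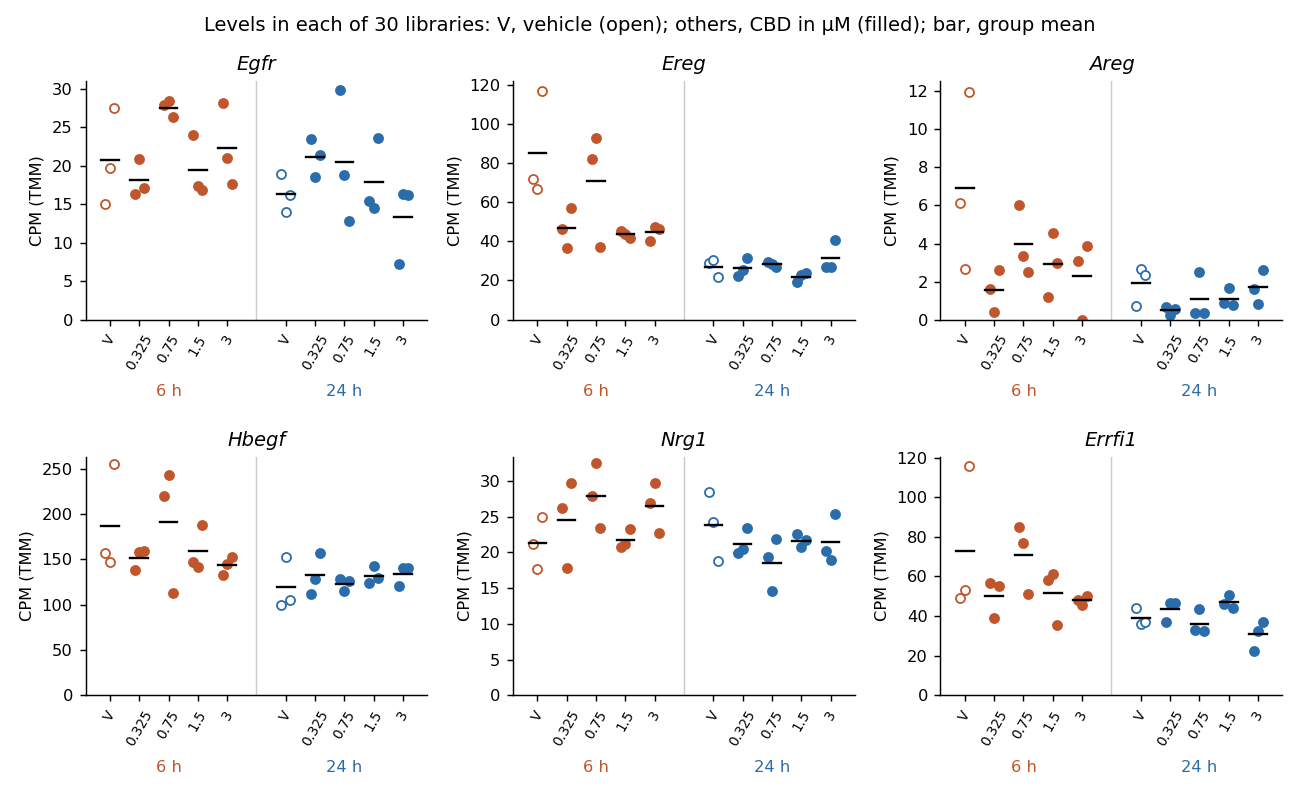
Level of each of the 6 genes in each library, in TMM-normalized CPM on a linear axis from 0, with vehicle (V, open circles) and the 4 CBD doses in µM (filled) at 6 h and 24 h, and a bar at the mean of the 3 libraries. *Ereg* at 6 h lies between 66.7 and 117 CPM in vehicle and between 40.1 and 47.1 CPM at 3 µM, and at 24 h all groups lie between 19.4 and 40.8 CPM.

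*Ereg* (ENSMUSG00000029377, chromosome 5) encodes epiregulin, a ligand of EGFR and ERBB4. It was the only member whose lower level with CBD at 6 h passed the test over the 4 doses together. In the vehicle libraries A1, A2 and A3 it was at 71.7, 66.7 and 117 CPM, from 129, 125 and 421 reads. At 3 µM the 3 libraries had 40.1, 47.1 and 46.4 CPM, at 1.5 µM 45.2, 43.5 and 41.8 CPM, and at 0.325 µM 46.1, 36.7 and 56.8 CPM. All 9 of these libraries lay below all 3 vehicle libraries. At 0.75 µM the libraries A10 and A11 had 81.9 and 92.6 CPM and A12 had 37.2 CPM, so that this group spanned nearly the whole range of the time point and overlapped with vehicle.

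Over the 4 doses together, the log2 fold change of *Ereg* against vehicle at 6 h was −0.79 (SE 0.19, edgeR quasi-likelihood test, FDR after Benjamini-Hochberg adjustment over the 12012 genes tested = 0.0623). An FDR below 0.1 was required, the threshold used in the study. *Ereg* was the only one of the 6 members to pass in this comparison, in which 0.749% of all genes tested passed and 0.508% passed as lower. Of the 6 members, 4 had a negative log2 fold change, and 3 (*Ereg*, *Areg* and *Errfi1*) had an unadjusted p below 0.05. Of all 12012 genes tested, 1234 had such a p. The group mean was 85.1 ± 27.6 CPM (SD, n = 3) in vehicle and 51.3 ± 17.8 CPM (SD, n = 12) in CBD-treated cells. Without the vehicle library A3, the log2 fold change was −0.47 and the FDR 0.320, and without the 3 µM library A4, A5 or A6 the FDR was 0.121, 0.106 or 0.106. Without A3, A10 and A11 together the log2 fold change was −0.69. These 3 libraries were picked after the fact for their high *Ereg*, so this value is no check of the call.

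Against each dose alone, *Ereg* did not pass: the log2 fold change was −0.90 at 0.325 µM (edgeR FDR = 0.201), −0.30 at 0.75 µM (FDR = 0.859), −0.99 at 1.5 µM (FDR = 0.199) and −0.96 at 3 µM (FDR = 0.227). None of the 6 members passed at any dose of 6 h by the edgeR test, while 3, 1, 0 and 3 of them had an unadjusted p below 0.05 at 3, 1.5, 0.75 and 0.325 µM. Of all 12012 genes tested, 872, 950, 936 and 1057 had such a p at these doses. DESeq2 called *Ereg* at 1.5 and 3 µM and no member at the other doses. Over all genes, 0.05%, 0.0999%, 0.0749% and 0.2% passed the edgeR test at these doses. The 4 comparisons share the same 3 vehicle libraries. Among the doses themselves, *Ereg* had an unadjusted p of 0.0277 and an edgeR FDR of 1, and no gene of the table passed (0%). That was also so for 3 µM against the 3 lower doses at 6 h (0%), where *Ereg* had a log2 fold change of −0.23 (SE 0.21). In these last comparisons 1 member and 0 members had an unadjusted p below 0.05, against 452 and 624 of the 12012 genes, and DESeq2 called no member.

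**Figure D2:**
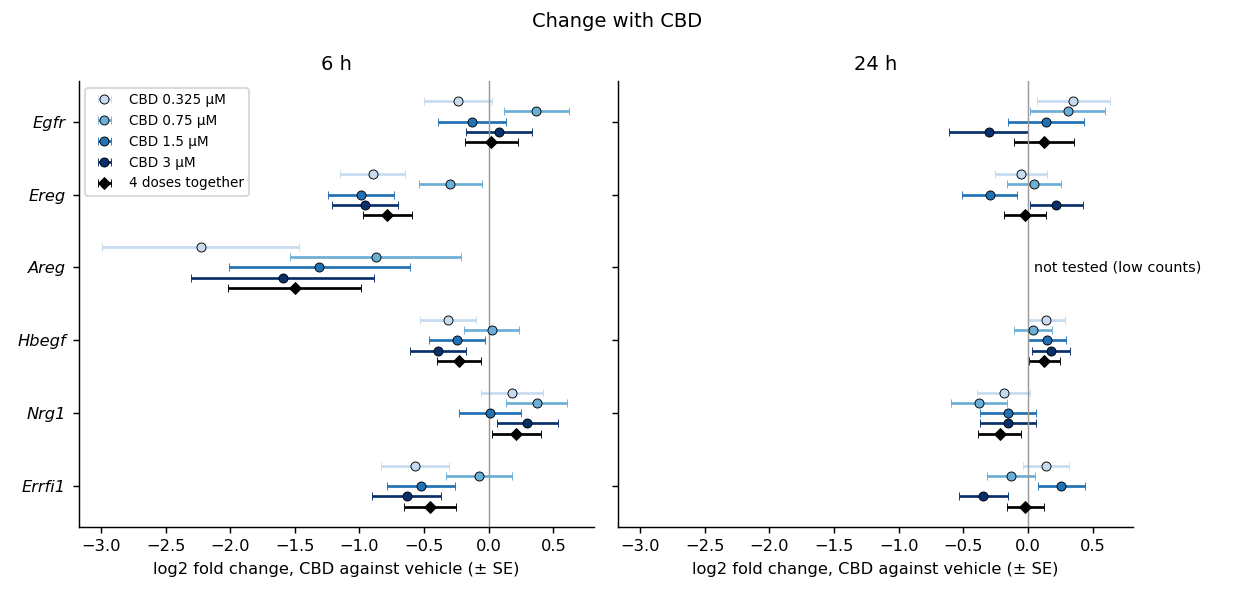
Log2 fold change of CBD against vehicle with its standard error for each gene, at 6 h (left) and 24 h (right), for the 4 doses (circles, darker with dose) and for the 4 doses together (black diamonds). At 6 h *Ereg* lies at −0.79 and *Areg* at −1.5 over the doses together, with standard errors of 0.19 and 0.51, and at 24 h *Areg* was not tested.

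At 24 h the vehicle and the CBD-treated libraries overlapped for *Ereg*. The vehicle libraries had 28.9, 30.5 and 21.5 CPM, and the 12 CBD-treated libraries had from 19.4 to 40.8 CPM with a median of 26.7 CPM. The log2 fold change over the 4 doses was −0.02 (SE 0.16, edgeR FDR = 0.995). The highest library, A18, was at 3 µM, with 40.8 CPM against 26.7 and 26.9 CPM in the other two libraries of that dose. In the order of its 10 group means, *Ereg* was highest in vehicle at 6 h, followed by the 4 dose groups of 6 h (0.75, 0.325, 3 and 1.5 µM) and then the 5 groups of 24 h. The means of 0.325, 3 and 1.5 µM at 6 h, 46.5, 44.5 and 43.5 CPM, lay within their spread, as did those of 24 h, which ran from 31.4 CPM at 3 µM to 22 CPM at 1.5 µM.

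*Areg* (ENSMUSG00000029378), the neighbour of *Ereg* on chromosome 5, encodes amphiregulin, a ligand of EGFR alone. It was read rarely, with 196 reads in all 30 libraries. In vehicle at 6 h it was at 6.12, 2.67 and 11.9 CPM, from 11, 5 and 43 reads. The 12 CBD-treated libraries of 6 h had from 0 to 6.01 CPM with a median of 2.79 CPM, and A5 at 3 µM had no read, where 3 reads would have been 1.31 CPM. The vehicle and the CBD-treated libraries overlapped. The log2 fold change over the 4 doses was −1.5 with an SE of 0.51, and did not pass (edgeR FDR = 0.254). With no filter on low counts the FDR was 0.0737, and without A3, A10 and A11 the log2 fold change was −0.94 (FDR = 0.648). At 24 h *Areg* had 1 to 8 reads per library and was left out of the test by the filter on low counts. Its group means ran from 6.91 CPM in vehicle at 6 h to 0.491 CPM at 0.325 µM and 24 h, and the neighbours in this order did not separate beyond their spread.

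*Hbegf* (ENSMUSG00000024486, chromosome 18) encodes HB-EGF, a ligand of EGFR and ERBB4. It had the most reads of the 6 members, 12283 over all libraries. In vehicle at 6 h it was at 157, 147 and 255 CPM. At 0.75 µM it was at 219.5, 243 and 113 CPM, so that A3, A10 and A11 held the 3 highest values here as well and A12 the lowest of the time point. The other 9 CBD-treated libraries had from 133 to 188 CPM. The log2 fold change over the 4 doses was −0.23 (SE 0.17, edgeR FDR = 0.700), and without A3 it was 0.08. At 24 h the vehicle libraries had 99.7, 153 and 105 CPM and the CBD-treated libraries 111 to 157 CPM (log2 fold change 0.13, SE 0.12, edgeR FDR = 0.919). In the order of its group means, the 5 groups of 6 h, from 192 CPM at 0.75 µM to 144 CPM at 3 µM, stood above the 5 of 24 h, from 134 CPM at 3 µM to 119 CPM in vehicle.

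*Nrg1* (ENSMUSG00000062991, chromosome 8) encodes a ligand of ERBB3 and ERBB4 and not of EGFR itself. In vehicle it was at 21.1, 17.6 and 25 CPM at 6 h and at 28.4, 24.2 and 18.9 CPM at 24 h. The CBD-treated libraries had from 17.7 to 32.5 CPM at 6 h and from 14.6 to 25.4 CPM at 24 h. All groups overlapped. The log2 fold change over the 4 doses was 0.22 (SE 0.19, edgeR FDR = 0.776) at 6 h and −0.22 (SE 0.17, edgeR FDR = 0.893) at 24 h, and the difference between both, −0.43 (SE 0.24), did not pass (edgeR FDR = 0.808). Its group means ran from 27.9 CPM at 0.75 µM and 6 h to 18.6 CPM at 0.75 µM and 24 h.

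*Egfr* (ENSMUSG00000020122, chromosome 11) was at 15, 19.7 and 27.5 CPM in vehicle at 6 h, and from 16.3 to 28.4 CPM in the CBD-treated libraries. The 3 libraries of 0.75 µM, with 27.8, 28.4 and 26.3 CPM, were among the 5 highest of that time point. The log2 fold change was 0.37 (SE 0.25, edgeR FDR = 0.796) at 0.75 µM and 0.02 (SE 0.20, edgeR FDR = 0.992) over the 4 doses. At 24 h it was at 18.9, 13.9 and 16.2 CPM in vehicle. At 3 µM it was at 7.28, 16.4 and 16.2 CPM, and the first of these, library A16, was the lowest of all 30 libraries. Against the 3 lower doses at 24 h, the log2 fold change of *Egfr* at 3 µM was −0.57 (SE 0.26, edgeR FDR = 0.195), and without A16 it was −0.28 (FDR = 0.715). Its group means ran from 27.5 CPM at 0.75 µM and 6 h to 13.3 CPM at 3 µM and 24 h, with the times mixed in between.

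*Errfi1* (ENSMUSG00000028967, chromosome 4) was at 48.9, 53.4 and 116 CPM in vehicle at 6 h. At 0.75 µM it was at 84.9, 76.9 and 51.3 CPM, and the other 9 CBD-treated libraries had from 35.5 to 61.3 CPM. A3, A10 and A11 were again the 3 highest. The log2 fold change over the 4 doses was −0.45 (SE 0.20, edgeR FDR = 0.429), and without A3 it was 0.09. At 24 h, *Errfi1* was at 44.0, 35.8 and 37.0 CPM in vehicle. At 3 µM it was at 22.6, 32.7 and 36.8 CPM, with A16 the lowest of all 30 libraries, whereas the 9 libraries of the lower doses had from 32.4 to 50.9 CPM. The groups overlapped. Against the 3 lower doses the log2 fold change was −0.43 (SE 0.16) and the edgeR FDR 0.105. DESeq2 gave an FDR of 0.0885, and leaving out library A17, A25 or A28 brought the edgeR FDR below 0.1 (0.0915 to 0.0981). Without A16 the log2 fold change was −0.26 and the FDR 0.562. In the order of the group means, vehicle and 0.75 µM at 6 h came first with 72.7 and 71.0 CPM, the other 3 groups of 6 h lay between 47.9 and 51.7 CPM, and those of 24 h between 30.7 and 47.2 CPM.

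At 24 h, none of the 5 members tested passed in any comparison of dose by the edgeR test. Over all genes, 0.107% passed for the 4 doses together, and 0.00825%, 0.0413%, 0.0825% and 0.066% at 3, 1.5, 0.75 and 0.325 µM. In these 5 comparisons 0 members had an unadjusted p below 0.05, and DESeq2 called none. Of the 12118 genes tested, 815, 1110, 889, 924 and 1009 had such a p, in the same order. In the test of any difference among the doses 1.93% of the genes passed, and in that of 3 µM against the lower doses 10.5% passed. Of the 5 members, 1 (*Errfi1*) had an unadjusted p below 0.05 in the former and 2 (*Egfr* and *Errfi1*) in the latter, where DESeq2 called *Errfi1* alone. Of the 12118 genes, 1753 had such a p in the former and 2620 in the latter.

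**Figure D3:**
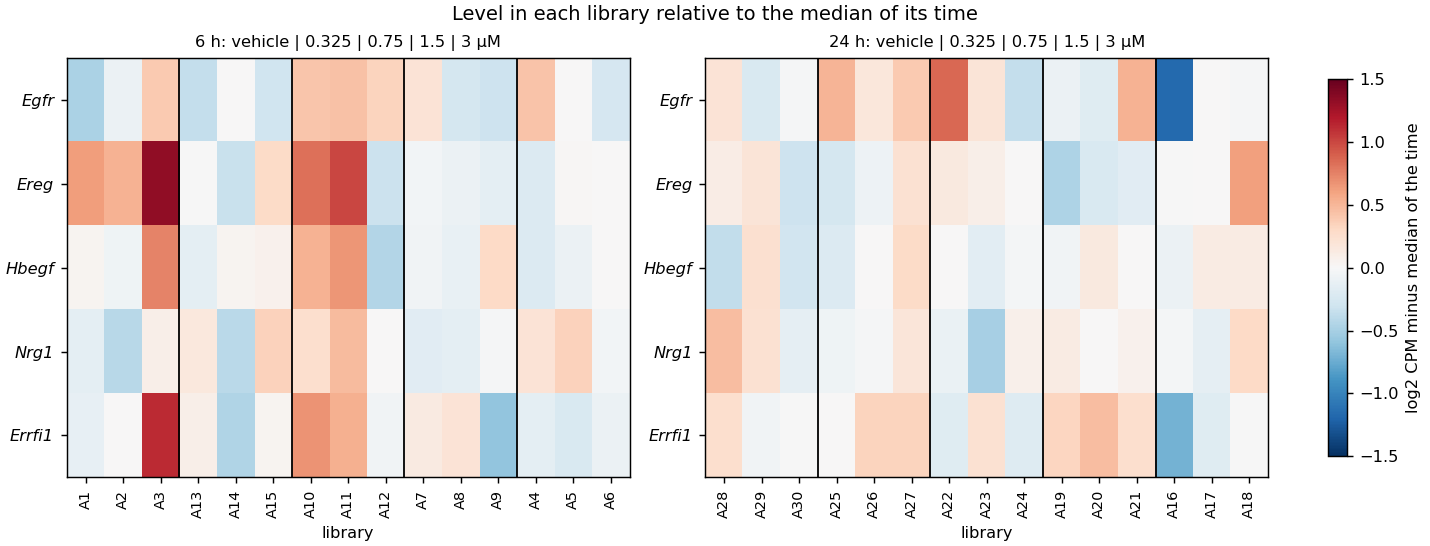
Log2 CPM of 5 of the genes in each library minus the median of the 15 libraries of that time, from blue (lower) to red (higher), with libraries in columns grouped by dose between the black lines. *Areg* is not drawn because A5 had no read. At 6 h the columns of A3, A10 and A11 are red for *Ereg*, *Hbegf* and *Errfi1*, and at 24 h A16 is blue for *Egfr* and *Errfi1*.

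Across the 15 libraries of 6 h, *Ereg* varied with *Hbegf* (Pearson's r = 0.81, permutation p = 0.00052, adjusted over 25 pairs p = 0.0065) and with *Errfi1* (r = 0.81, permutation p = 0.00027, adjusted p = 0.0065). Spearman's rho was 0.61 for both pairs (permutation p = 0.0173 and 0.0191, both with an adjusted p of 0.238). Of the 25 pairs of members and times, 5 had an adjusted p of Pearson's r below 0.1, all of them at 6 h and among *Ereg*, *Areg*, *Hbegf* and *Errfi1*. By Spearman's rho none of the 25 did. Without the 2 libraries farthest from the median of *Ereg*, A3 and A11, r was 0.56 and 0.58. Without A3, A10 and A11 it was 0.26 and 0.29, and no pair passed. These 3 libraries were picked after the fact for their high *Ereg*, *Hbegf* and *Errfi1*, so these values are no check of the relation. At 24 h no pair passed, and r of *Ereg* was 0.39 with *Hbegf* and −0.23 with *Errfi1*.

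In vehicle, *Ereg*, *Areg*, *Hbegf* and *Errfi1* were lower at 24 h than at 6 h, 4 of the 6 members, where 26.7% of the 12790 genes tested passed and 14.2% passed as lower. *Ereg* had the smallest p of the 6. Its 3 vehicle libraries of 24 h, from 21.5 to 30.5 CPM, lay below those of 6 h, from 66.7 to 117 CPM (log2 fold change −1.67, SE 0.24, edgeR FDR = 6.33e-06). *Errfi1* did not overlap either, with 35.8 to 44.0 CPM at 24 h and 48.9 to 116 CPM at 6 h (log2 fold change −0.93, SE 0.24, edgeR FDR = 0.00475). *Hbegf* overlapped, with 99.7 to 153 CPM at 24 h and 147 to 255 CPM at 6 h (log2 fold change −0.66, SE 0.20, edgeR FDR = 0.0155). For *Areg*, at 0.699 to 2.65 CPM against 2.67 to 11.9 CPM, the log2 fold change was −1.95 with an SE of 0.70 (edgeR FDR = 0.0442), and the values nearest to each other came from 8 and 5 reads.

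Without the vehicle library A3 of 6 h, *Ereg* alone of these 4 members passed. Without A3, the log2 fold change from 6 h to 24 h in vehicle was −1.34 for *Ereg* (edgeR FDR = 0.000322), −0.37 for *Errfi1* (FDR = 0.295), −0.34 for *Hbegf* (FDR = 0.280) and −1.22 for *Areg* (FDR = 0.353). Without the vehicle library A28 of 24 h, *Hbegf* (FDR = 0.113) and *Areg* (FDR = 0.217) did not pass. With the percentage of reads outside genes as a covariate, *Areg* did not pass (−1.64, FDR = 0.170), and *Errfi1* was at −0.61 (FDR = 0.0745). The summed neuronal markers were also lower at 24 h in vehicle, with no overlap, and their part in these results was not tested. *Egfr* and *Nrg1* were not among the genes called in vehicle, with log2 fold changes of −0.37 (SE 0.28, edgeR FDR = 0.376) and 0.15 (SE 0.22, edgeR FDR = 0.671).

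With CBD, the mean of the 4 dose groups was lower at 24 h than at 6 h for 5 of the 6 members, where 53.6% of all genes passed and 27.6% passed as lower. The log2 fold changes were −0.90 for *Ereg* (SE 0.12, edgeR FDR = 1.84e-07), −1.32 for *Areg* (SE 0.43, FDR = 0.0114), −0.49 for *Errfi1* (SE 0.12, FDR = 0.00115), −0.30 for *Hbegf* (SE 0.10, FDR = 0.0134) and −0.27 for *Nrg1* (SE 0.11, FDR = 0.0389). The 12 libraries of each time overlapped for all 5 of these members. *Ereg* was at 36.7 to 92.6 CPM at 6 h against 19.4 to 40.8 CPM at 24 h, and *Hbegf* at 113 to 243 CPM against 111 to 157 CPM. Without A3, A10 and A11, the log2 fold change was −0.67 for *Ereg*, −0.37 for *Errfi1*, −1.15 for *Areg*, −0.11 for *Hbegf* and −0.21 for *Nrg1*. These libraries were picked after the fact for their high *Ereg*, *Hbegf* and *Errfi1* at 6 h, so these values are no check of the calls. *Nrg1* was lost without A11, A15 or A23 alone (FDR from 0.100 to 0.108). *Egfr*, at −0.26 (SE 0.14, FDR = 0.125), passed without library A21 or A22 (FDR = 0.0743 and 0.0440).

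The change with CBD at 24 h minus that at 6 h was 0.77 for *Ereg* (SE 0.27, edgeR FDR = 0.435), 0.44 for *Errfi1* (SE 0.27), 0.36 for *Hbegf* (SE 0.22) and 0.64 for *Areg* (SE 0.87). Without A3 the value was 0.45 for *Ereg* (FDR = 0.733) and 0.0523 for *Hbegf* (FDR = 0.976), and without the vehicle library A29 it was 0.58 for *Hbegf*. None of the 6 members passed this test of the difference, in which 0.235% of all genes passed. Of the 6, only *Ereg* had an unadjusted p below 0.05, and DESeq2 called none. Of all 12790 genes tested, 834 had such a p.

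**Figure D4:**
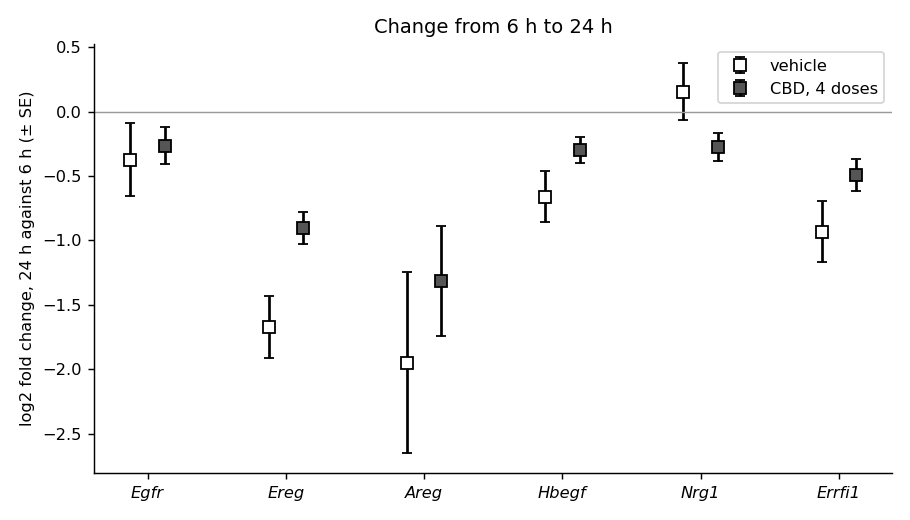
Log2 fold change from 6 h to 24 h with its standard error for each gene, in vehicle (white squares) and in the mean of the 4 CBD doses (grey squares). *Ereg* lies at −1.67 in vehicle and −0.90 with CBD, while *Nrg1* lies at 0.15 and −0.27.

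Of the 10 other genes of the family, *Tgfa*, *Btc* and *Erbb2* passed the filter on low counts. *Btc*, which encodes betacellulin and follows *Epgn*, *Ereg* and *Areg* in a row on chromosome 5, was at 31.4 ± 9.87 CPM (SD, n = 3) in vehicle and 28.2 ± 6.79 CPM (SD, n = 12) with CBD at 6 h. It passed in the comparison of CBD-treated libraries between the times (log2 fold change −0.44, SE 0.15, edgeR FDR = 0.0149), and did not without A3, A10 and A11 (−0.31, FDR = 0.120). *Tgfa*, a ligand of EGFR, and *Erbb2*, the receptor that has no ligand and pairs with the others, did not pass in any comparison. *Tgfa* was at 5.41 ± 2.56 CPM in vehicle and 3.48 ± 1.77 CPM with CBD at 6 h, and *Erbb2* at 15.8 ± 1.12 and 17 ± 3.44 CPM. *Egf* had 174 reads in all 30 libraries, *Nrg4* 115, *Erbb3* 86, *Nrg2* 41, *Erbb4* 11, *Epgn* 9 and *Nrg3* 0 reads. Both receptors of neuregulin 1 were among the genes with few reads. Genes on the opposite strand overlap *Egfr*, *Ereg*, *Nrg1* and *Errfi1* in the annotation used for symbols, and whether the counting used strand is not given in the sources used here, so reads of these partners cannot be told apart.

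Of the early genes that ERK switches on, 4 were lower with CBD at 6 h. Over the 4 doses together, 0.749% of all genes tested passed and 0.508% passed as lower. Of the 14 early genes listed, 13 were tested, and all 13 had a negative log2 fold change over the 4 doses. Their median was −0.53 against −0.02 over all genes tested. The 4 that passed were *Fosb* (−1.30, SE 0.24, edgeR FDR = 0.00995), *Junb* (−0.67, SE 0.13, FDR = 0.0161), *Egr1* (−0.65, SE 0.15, FDR = 0.0437) and *Ier3* (−0.52, SE 0.13, FDR = 0.0677). *Fosb*, which encodes a partner of Jun in AP-1, was at 23.9 to 26.7 CPM in the 3 vehicle libraries and at 4.38 to 15.9 CPM in all 12 CBD-treated libraries. *Ereg* and these genes were compared against the same 3 vehicle libraries. Without A3, A10 and A11, *Junb* (FDR = 0.145) and *Egr1* (FDR = 0.338) did not pass. *Egr1* did not pass without A3 alone (FDR = 0.385), and *Ier3* was lost without any 1 of A1, A2, A4, A5, A6, A7, A10 and A12 (FDR from 0.108 to 0.453). At single doses, *Junb* passed at 0.325 µM (−0.83, SE 0.17, FDR = 0.0572) and *Fosb* at 0.75 µM (−2.02, SE 0.34, FDR = 0.0213). *Junb* was lost without A3, A5, A14 or A15 (FDR from 0.101 to 0.214), without A3, A10 and A11 (0.130) and with only these 2 groups in the fit (0.683), and *Fosb* without A12 (FDR = 0.510).

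The ERK feedback genes pointed the same way at 6 h, and none of the 8 tested passed by the edgeR test. An unadjusted p below 0.05 was found for 2 of them and for 1234 of all 12012 genes tested. All 8 had a negative log2 fold change, with a median of −0.50. Between 6 h and 24 h in vehicle, 4 of them were lower: *Dusp6* (−1.51, SE 0.29, edgeR FDR = 0.000302), *Dusp5* (−1.19, SE 0.30, FDR = 0.00468), *Spry2* (−1.04, SE 0.27, FDR = 0.00496) and *Dusp4* (−1.17, SE 0.33, FDR = 0.00887). *Dusp6*, the phosphatase that acts on ERK in the cytoplasm, was at 47.5 to 119 CPM in vehicle at 6 h and at 20.9 to 40.8 CPM at 24 h. Of the 13 early genes, 7 were lower as well, led by *Fos* (−1.40, SE 0.25, FDR = 0.000124) and *Fosb* (−1.97, SE 0.36, FDR = 0.000194). In this comparison 26.7% of all genes passed and 14.2% passed as lower. The median log2 fold change was −1.09 for the feedback genes and −0.48 for the early genes, against −0.03 over all genes and −0.80 for the 6 members. The 4 feedback genes and *Fos* and *Fosb* also passed without A3, with an FDR of 0.0906 at most.

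With CBD, where 53.6% of all genes passed and 27.6% passed as lower, 4 of the 8 feedback genes were lower at 24 h than at 6 h, *Dusp4* (−0.87), *Spry2* (−0.65), *Spry4* (−1.28) and *Dusp6* (−0.39). Of the 13 early genes, 6 were lower, such as *Etv4* (−0.72, SE 0.09, edgeR FDR = 5.49e-08), and 4 were higher, such as *Junb* (0.76, SE 0.10, FDR = 9.97e-08), *Ier2* (0.70, SE 0.11, FDR = 1.36e-06) and *Egr2* (1.23, SE 0.24, FDR = 4.74e-05). *Junb* was also the only gene of the lists whose change with CBD differed between the times (1.04, SE 0.22, FDR = 0.0644). It was at 207 ± 47.8 CPM (SD, n = 3) in vehicle and 132 ± 20.7 CPM (SD, n = 12) with CBD at 6 h, and at 172 ± 31.3 and 227 ± 58.5 CPM at 24 h. At 3 µM and 24 h alone, *Junb* was at 159 ± 61.3 CPM (SD, n = 3), with a mean below that of vehicle.

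**Figure D5:**
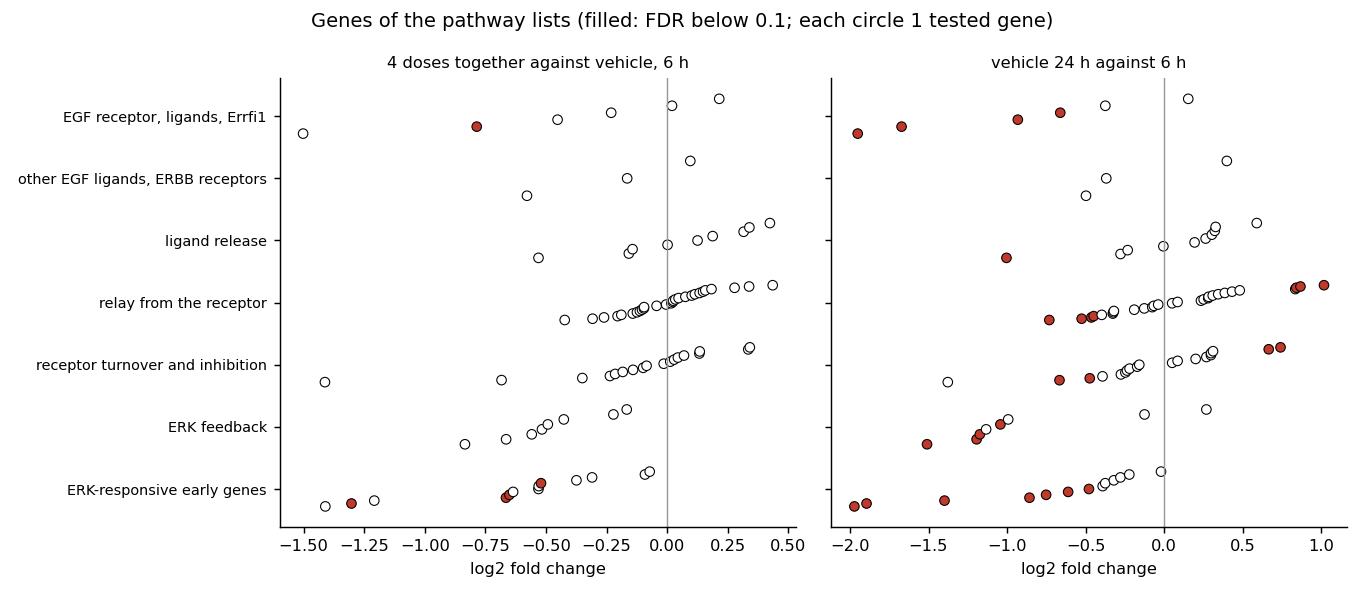
Log2 fold change of each tested gene of the pathway lists, for the 4 CBD doses together against vehicle at 6 h (left) and for vehicle at 24 h against 6 h (right), with 1 circle for each gene and filled circles for an FDR below 0.1. On the left all ERK feedback and early genes lie below 0, with 0 of 8 and 4 of 13 filled, and on the right 4 of 8 and 7 of 13 are filled. Over all genes tested, 0.749% passed in the left comparison and 26.7% in the right.

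The genes that release the ligands, relay the signal and remove the receptor had differences in both directions. None of the 9, 28 and 18 tested genes of these lists passed over the 4 doses at 6 h by the edgeR test, while 2, 3 and 3 had an unadjusted p below 0.05. Of all 12012 genes tested, 1234 had such a p. Between 6 h and 24 h in vehicle, *Timp3*, an inhibitor of the ADAM proteases, was lower (−1.0, SE 0.20, edgeR FDR = 0.000481). In that comparison 26.7% of all genes passed and 14.2% passed as lower. Neither the relay nor the turnover genes passed more often than all genes. Of the 28 relay genes 3 were higher, *Stat3* (1.02), *Plcg1* (0.84) and *Stat5a* (0.87), and 4 were lower, led by *Crk* (−0.73) and *Nras* (−0.46). *Nras* did not pass without A3 (FDR = 0.322). Of the 19 turnover genes, the phosphatase gene *Ptprk* (0.67) and *Lrig3* (0.74) were higher and *Sh3kbp1* (−0.67), which encodes an adaptor of receptor uptake, and *Socs5* (−0.47) were lower, and *Socs5* did not pass without A3 (FDR = 0.348). With CBD, 1 release gene was higher and 4 were lower between the times, of 10 tested, against 11 and 6 of the 28 relay genes and 8 and 3 of the 19 turnover genes. These shares were near the 53.6% of all genes that passed.

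At 24 h, *Adam9*, a protease that can shed HB-EGF, was the only listed gene to pass over the 4 doses. It was at 9.29 ± 3.32 CPM (SD, n = 3) in vehicle and 3.59 ± 1.38 CPM (SD, n = 12) with CBD (log2 fold change −1.42, SE 0.31, edgeR FDR = 0.0848). It no longer passed in 11 of the 15 fits that left out 1 library, with the highest FDR, 0.846, without the vehicle library A30. It did not pass either with the percentage of reads outside genes in the model. At 3 µM against the lower doses, where 10.5% of all genes passed, 6 of the 28 relay genes, 3 of the 12 early genes, 1 of the 10 release genes and 1 of the 17 turnover genes passed. Among those that passed were *Adam15* (0.62), *Etv4* (0.77), *Fos* (0.64), *Crk* (0.58) and *Hras* (0.46) as higher and *Stat3* (−0.58), *Akt1* (−0.45), *Pik3cb* (−0.59), *Socs3* (−0.71) and *Junb* (−0.64) as lower. Of these 10, *Etv4* alone passed without library A16, which also had the lowest *Egfr* and *Errfi1*. For the other 9 the FDR without A16 ran from 0.134 to 0.529.

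The genes whose levels ran most like those of each member were ranked by the smaller of 2 Pearson's r, within the 15 libraries of 6 h and within those of 24 h, over the 10442 genes with a mean of at least 5 CPM. The points share their libraries and their normalization, and r is given as a description. *Ereg* ran most like *Zfp703* (r = 0.72 at 6 h and 0.69 at 24 h), *Txnrd3* (0.79 and 0.66) and *Vegfa* (0.75 and 0.62). *Nfkbia* (0.79 and 0.78) and *Ptges* (0.79 and 0.75) were among the genes most like *Errfi1*, and *Hbegf* ran most like *Txnrd1* (0.72 and 0.78), *Hmga2* (0.90 and 0.67) and *Npm1* (0.66 and 0.70). For *Egfr* they were *Lactb2*, *Itgb1* and *Ints2*, with the smaller r from 0.68 to 0.72, and for *Nrg1* they were *Tusc1*, *Ctsl* and *Mpp7*, with the smaller r from 0.60 to 0.66.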

How the data were processed

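The 30 libraries were made by the authors from mHypoA-2/12 cells with a QuantSeq 3′ mRNA-Seq FWD kit and sequenced as single reads. Per the paper's methods, the authors trimmed reads with Flexbar, mapped them to GRCm39 with STAR (2.7.5c) and counted them with HTSeq-count (1.99.2) on Ensembl genes. The deposited values are raw read counts per gene, not normalized, with 1839621 to 4420675 reads on genes per library. Reads that mapped once and outside any gene made up 17.7% to 22.2%, and such rows entered neither library sizes nor tests. Reads carry no molecular identifiers as far as the sources used here say, and limits from read numbers cover counting error only. For symbols and chromosomes GENCODE M21 (GRCm38) was used, in which 51948 of the 56941 genes had a name, and promoters from RefSeq (GRCm38.p6), which had a window for 3 of the 6 members. These builds are older than that of the counts, so coordinates are given for the promoter windows alone, on GRCm38.p6.

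Counts were filtered with filterByExpr and normalized with TMM in edgeR (4.0.16, R 4.3.3). The 15 libraries of a time were modelled together, each group with its own mean (12012 genes at 6 h, 12118 at 24 h), and the contrasts between times in a fit of all 30 libraries (12790 genes). Contrasts were tested with edgeR's quasi-likelihood F-test. P-values were adjusted after Benjamini-Hochberg across every tested gene, and genes with an FDR below 0.1 were called. Log2 fold changes are CBD minus vehicle, or 24 h minus 6 h. Levels are CPM with the TMM factors of all 30 libraries. Correlations used log2 CPM with a prior count of 2 and two-sided permutation tests with 100000 resamples. Scripts were tested on simulated data. Alternatives were DESeq2 (1.42.0), RLE factors, other filters, a covariate, other sets of libraries in the fit and leaving out libraries. Leaving out A3, A10 and A11 was chosen after seeing the data. The members, the pathway lists and the comparisons were chosen with earlier results of these data known. All 6 members are named, and of the lists the genes that passed, at most 5 for each list and comparison by the smallest p. Proteins were not used here, and 1 gene among those most like *Errfi1* is not reported here.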

Additional observations from a re-analysis of the deposited data

Results flagged for a closer look

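The change of *Junb* with CBD differed between the times by the test of the difference itself, with a log2 value at 24 h minus 6 h of 1.04 (SE 0.22, edgeR quasi-likelihood test, FDR = 0.0644). *Junb* was at 207 ± 47.8 CPM (SD, n = 3) in vehicle and 132 ± 20.7 CPM (SD, n = 12) with CBD at 6 h, and at 172 ± 31.3 and 227 ± 58.5 CPM at 24 h. The value was 0.84 without the vehicle library A3 (FDR = 0.275) and 0.81 without A3, A10 and A11 (FDR = 0.323), and over all 30 cases of leaving out 1 library it ran from 0.84 to 1.20 with an FDR below 0.1 in 24 of them. None of the 6 members differed between the times in this test.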

How the results depend on the processing

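No paired analysis was possible because the labels give no replicate numbers that groups share. The number of members called over the 4 doses at 6 h was 1 and became 2 with no filter on low counts (*Ereg* and *Areg*). *Ereg* was called, so that the count rose from 0 to 1, at 0.325 µM and 6 h with no filter, with the percentage of reads outside genes as covariate, and with all 30 libraries in the fit, and at 1.5 and 3 µM in these and with DESeq2. For 3 µM against lower doses at 24 h the count was 1 (*Errfi1*) with DESeq2 and with at least 10 counts in every library. Without A3, A10 and A11, the count was 1 in vehicle between the times, against 4, and 3 with CBD, against 5. The number of correlated pairs, 5, was 2 with a prior count of 0.5, 3 in CBD-treated libraries only and 0 without A3, A10 and A11. In CBD-treated libraries, *Ereg* and *Nrg1* at 6 h passed (Pearson's r = 0.68, permutation test, adjusted p = 0.0983), a pair not among the 5. The cause of these differences in counts was not tested.

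With 1 library left out, the count of members ranged from 0 to 1 over the 4 doses, at 0.325, 1.5 and 3 µM at 6 h and at 3 µM against lower doses at 24 h, from 1 to 4 in vehicle between the times, and from 4 to 6 with CBD. Log2 values that changed sign in this way ranged, over the 4 doses at 6 h, from −0.15 to 0.31 for *Egfr*, −0.37 to 0.0793 for *Hbegf* and −0.66 to 0.0909 for *Errfi1*, and at 24 h from −0.15 to 0.0715 for *Ereg* and −0.0731 to 0.0826 for *Errfi1*. For the difference between the times they ranged from −0.18 to 0.28 for *Egfr*, −0.0802 to 0.99 for *Areg* and −0.11 to 0.65 for *Errfi1*. At 6 h they ranged from −0.54 to 0.0170 for *Ereg* at 0.75 µM, −0.28 to 0.47 for *Errfi1* at 0.75 µM and −0.74 to 0.0171 for *Errfi1* at 1.5 µM. With the covariate, *Errfi1* was at 0.14 over the 4 doses at 24 h and at 0.0898 at 0.75 µM and 6 h. Without A3, A10 and A11, the difference between the times for *Egfr* was −0.17, *Errfi1* at 6 h was at 0.00336 at 0.75 µM and 0.0206 at 1.5 µM, and r of *Hbegf* and *Errfi1* at 6 h was −0.53. Of these values only that r had passed its test. Of the other log2 values of members, 1151 kept their direction and side of the threshold, 22 passed and 19 no longer passed. At these depths *Areg*, at 0 to 43 reads, limits what can be seen.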
